A study of Mus musculus with 9 samples.

Results

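The enzymes of the pentose phosphate pathway and the cytosolic enzymes that make NADPH were followed in mouse liver, as 9 genes chosen by name from the 24411 genes of the deposited table. The oxidative branch of the pathway was represented by Pgls and Pgd, the related reactions in the endoplasmic reticulum (ER) by H6pd, the non-oxidative branch by Rpia, Rpe, Tkt and Taldo1, and the NADPH producers outside the pathway by Me1 and Idh1. All 9 were found. Poly(A) RNA came from 9 livers of 3-month-old mice on a C57BL/6 background, with 3 mice in each of 3 groups. All mice were homozygous for floxed Atg7, a gene needed to form autophagosomes. The cont. mice had no Cre recombinase. The Atg7-KO mice carried Alb-Cre, in which the albumin promoter drives Cre in hepatocytes, so that the other cells of the liver keep Atg7. The Atg7-KO;p62-S351A mice, called S351A below, carried Alb-Cre and in addition a knock-in of p62 on both alleles that replaces the serine of the KEAP1-binding region by alanine. The titles assigned the groups, although for S351A replicates 2 and 3 the genotype entry gives the second p62 allele a position that differs from the title.

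The oxidative branch turns glucose 6-phosphate into ribulose 5-phosphate and yields NADPH. The non-oxidative branch is reversible and links pentose phosphates to glycolytic intermediates. NADPH is the reductant for glutathione and thioredoxin recycling, for quinone reduction and for the synthesis of fatty acids and sterols, all of which the liver carries out. Several of these enzyme genes are known targets of NRF2, the transcription factor that KEAP1 marks for degradation and that is released when p62 binds KEAP1. The comparisons asked how these genes stood in livers whose hepatocytes lack autophagy, and in such livers with a p62 that binds KEAP1 less well.

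NRF2 binds antioxidant response elements with the core TGACNNNGC, in which N is any base. This core was searched on both strands in RefSeq promoter windows of build GRCm38.p6, which run from 250 bases before to 50 bases after an annotated start. All 9 genes had a window, and 2 of them, Pgd and Me1, held the core. Of 27025 genes with a window, 14.0% held it in any window, as did 12.4% of the 32851 windows. The windows with the core are shown for Pgd, which differed most between groups, and for Me1, which was not called in any comparison. Capitals mark the core. The Pgd window at chr4:149166033-149166332, on the - strand, belongs to the more downstream of 2 annotated starts, and the core begins at position 3 relative to that start, inside the transcript. The window of the other Pgd start has no such core, so Pgd counts as holding it only through the downstream start. That downstream window lies wholly inside the gene, and the core comes after both annotated Pgd starts. Use of either start in these livers was not measured. The Me1 window at chr9:86695865-86696164, on the - strand, holds the core from position -6, and the window of the other Me1 start has none.
Pgd: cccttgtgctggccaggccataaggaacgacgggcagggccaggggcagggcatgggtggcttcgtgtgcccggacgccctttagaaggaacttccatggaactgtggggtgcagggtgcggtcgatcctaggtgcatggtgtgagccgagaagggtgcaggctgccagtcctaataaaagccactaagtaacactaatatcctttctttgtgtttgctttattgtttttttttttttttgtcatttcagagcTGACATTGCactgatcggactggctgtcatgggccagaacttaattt
Me1: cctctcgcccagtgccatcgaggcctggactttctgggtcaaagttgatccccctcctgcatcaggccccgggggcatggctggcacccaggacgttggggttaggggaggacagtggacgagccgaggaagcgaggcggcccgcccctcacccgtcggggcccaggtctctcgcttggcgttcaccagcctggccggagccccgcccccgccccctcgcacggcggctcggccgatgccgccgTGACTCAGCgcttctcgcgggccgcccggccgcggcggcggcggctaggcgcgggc
The E box CACGTG, the core of the element bound by the glucose-responsive factor ChREBP, was searched in the same windows. It was present in 0 of the 9 genes, against 8.09% of the 27025 genes with a window and 7.15% of all windows. A count of 0 among 9 lies near that share. A match is a description of the sequence and not a measured site of binding, and the absence of a match says only that these letters are not in the window.

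The libraries held 1875325 to 15426575 counts in cont., 1945483 to 3675058 in Atg7-KO and 713841 to 792372 in S351A. Every S351A library was smaller than every other library, so depth and the p62 mutation cannot be told apart. A count of 3 in a library, taken as the floor of detection, corresponded to 0.267 to 3.70 CPM, the counts relative to library size on the TMM scale that are the unit of all levels here. Atg7 itself was at 42.1 to 57.3 CPM in the cont. livers, 27.8 to 29.9 CPM in the Atg7-KO livers and 21.7 to 24.7 CPM in the S351A livers. Xist and Y-linked genes marked replicates 1 and 3 of cont. and replicate 1 of each other group as male, and the rest as female. Hepatocyte markers were abundant in every library. Their sum over the 6 listed genes in the table fell between 44575 and 100708 CPM in the cont. livers, 29991 and 37230 CPM in the Atg7-KO livers and 28231 and 42099 CPM in the S351A livers.

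In cont. livers, the transcript level per length was highest for Idh1, at 230.3 ± 19.95 CPM per kb of exon (SD, n = 3). H6pd and Taldo1 followed at 67.7 ± 13.3 and 60.6 ± 13.1 CPM per kb, and their libraries overlapped. Next came Me1, Tkt, Rpe and Pgls, between 14.8 and 35.7 CPM per kb, each overlapping its neighbour. Pgd, at 7.37 ± 0.613 CPM per kb, lay below Pgls in every library. Rpia was lowest, at 1.61 ± 0.591 CPM per kb, and lay below Pgd in every library. In Atg7-KO, Pgd stood at place 3 of this order with 70.2 ± 3.60 CPM per kb, overlapping Taldo1 above it and H6pd below it. In S351A, Pgd was at place 4 with 36.7 ± 11.6 CPM per kb. Per kb of exon, Idh1 was the highest of the 9 in all 3 groups, and Rpia the lowest. These ranks rest on the merged length of all annotated exons. In CPM, Pgd (452) and H6pd (364) averaged above Idh1 (359) in Atg7-KO, and H6pd (349) above Idh1 (347) in S351A.

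**Figure D1:**
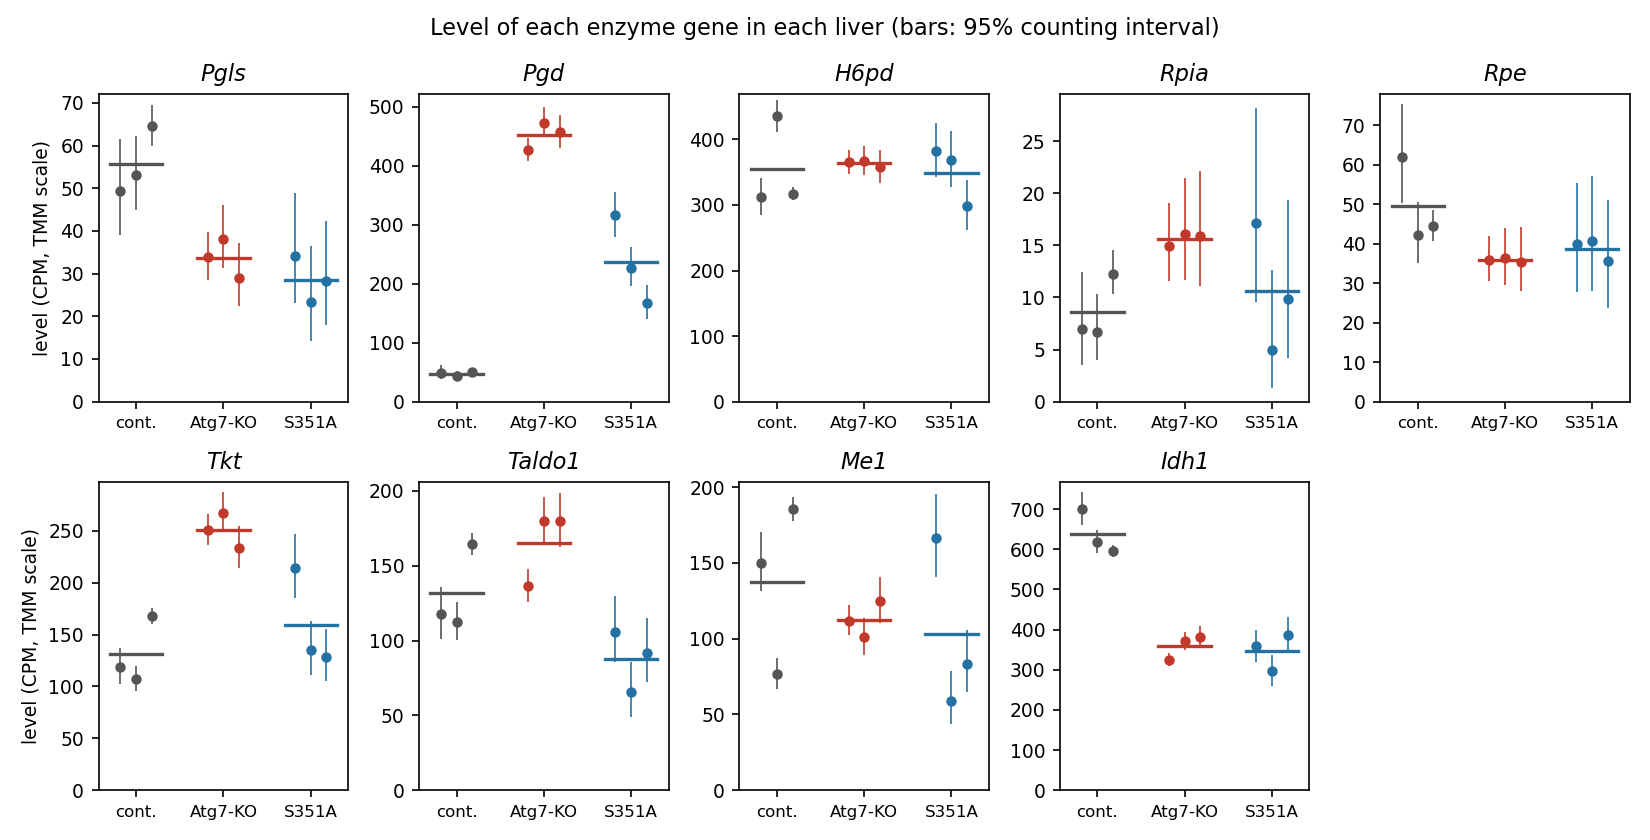
Level of each of the 9 enzyme genes in each liver, in CPM on the TMM scale (vertical axes, each starting at 0), with 3 livers per group. Points are libraries in the order of their replicate numbers, vertical bars the 95% counting interval and horizontal bars the group mean. Pgd is low in every cont. liver, high in every Atg7-KO liver and between them in every S351A liver, while H6pd overlaps in all groups.

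Livers of Atg7-KO differed from cont. most in Pgd. Of the 9 genes, 2 were called higher (Pgd and Tkt) and 2 were called lower (Pgls and Idh1), by edgeR's quasi-likelihood test with a Benjamini-Hochberg adjusted p under 0.05 and a fold change above 1.5. Among all 11238 genes tested, 19.9% were called higher and 18.1% lower, a background near which counts of 2 and 2 among 9 lie. The libraries of the groups did not overlap for 3 genes that were higher and 3 that were lower, against 26.8% and 24.8% of all genes. Pgd had the largest fold change of the 9, at 9.51-fold. The median log2 fold change of the 9 was 0.04, against -0.03 over all genes tested. In bulk tissue, fewer cells of a type and less RNA per cell cannot be told apart.

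Pgd encodes 6-phosphogluconate dehydrogenase, which makes NADPH at the last step of the oxidative branch, and lies on chromosome 4 from 149149991 to 149166771 on the - strand, in the mm10 coordinates used for all genes here. Its levels were 49.3, 43.0 and 50.3 CPM in the cont. livers, 427, 473 and 457 CPM in the Atg7-KO livers, and 316, 227 and 167 CPM in the S351A livers. The groups did not overlap, and the S351A livers spread more (SD 75.1 CPM around a mean of 236 CPM) than the Atg7-KO livers (SD 23.2 CPM around 452 CPM). Pgd rose by 3.25 on the log2 scale in Atg7-KO (SE 0.26, adjusted p 4.47e-06) and by 2.31 in S351A (SE 0.25, adjusted p 7.57e-05), both against cont. Pgd was called higher in both comparisons under every alternative processing. The study reported a rise of Pgd mRNA (quantitative PCR) and protein (immunoblot) in Atg7-KO livers, smaller in S351A. The direction seen here is therefore not a new observation.

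Pgls, the step before Pgd in the pathway, went the other way. It encodes 6-phosphogluconolactonase, which hydrolyses 6-phosphogluconolactone without using or making NADPH, and lies on chromosome 8 from 71592176 to 71601092 on the + strand. Levels were 49.3, 53.1 and 64.6 CPM in the cont. livers, 33.8, 38.1 and 29.1 CPM in the Atg7-KO livers, and 34.2, 23.4 and 28.2 CPM in the S351A livers. All livers with Cre lay below all cont. livers. Pgls fell by 0.73 on the log2 scale in Atg7-KO (SE 0.20, adjusted p 0.0114) and by 0.97 in S351A (SE 0.22, adjusted p 0.00687). Neither call was made when libraries were scaled by their totals, which gave -0.19 and -0.47, or by totals without the 20 most abundant genes, which gave -0.30 and -0.57. With every library thinned to the smallest, the Atg7-KO change was -0.61 and was not called (adjusted p 0.0691). Pgls overlaps Fam129c on the same strand, which was at 2.93, 2.65 and 2.86 CPM on average in the 3 groups. Without replicate 3 of Atg7-KO, the change in Atg7-KO was -0.65 and was not called (adjusted p 0.0610).

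H6pd encodes the ER enzyme that makes NADPH inside the ER lumen and supplies NADPH to the reductase Hsd11b1. It lies on chromosome 4 from 149979475 to 150009023 on the - strand. It was at 312, 435 and 317 CPM in the cont. livers, 366, 367 and 358 CPM in the Atg7-KO livers, and 382, 369 and 298 CPM in the S351A livers. The 3 groups overlapped. The log2 fold change was 0.04 in Atg7-KO (95% interval -0.43 to 0.51) and -0.02 in S351A (-0.49 to 0.45), so changes larger than 1.42-fold upward lie outside the interval for Atg7-KO. Neither was called.

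**Figure D2:**
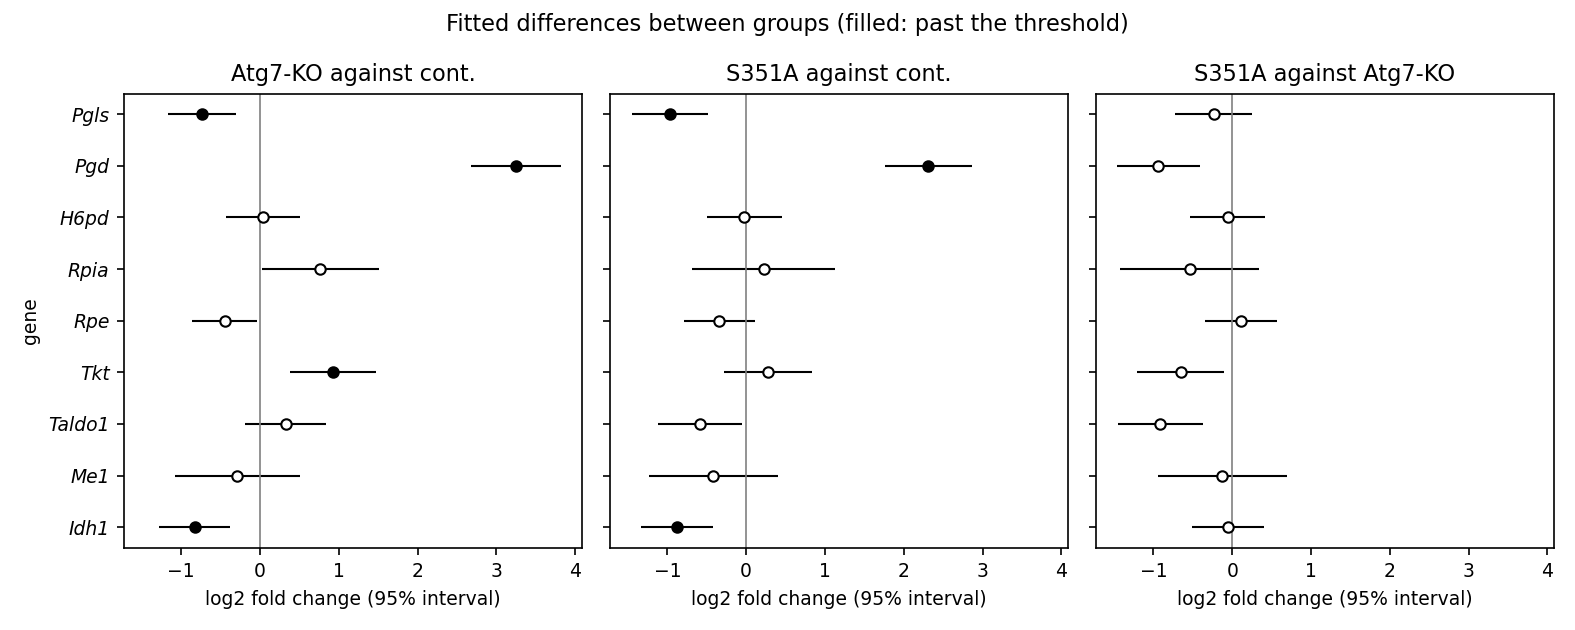
Log2 fold change of each gene (horizontal axis) with its 95% interval in the 3 comparisons, from the edgeR fit of all 9 libraries. Filled points passed the threshold of the test. Pgd lies at 3.25 and 2.31 in the comparisons with cont., while all 9 points of S351A against Atg7-KO are open.

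In the non-oxidative branch, Tkt was the member called in Atg7-KO. Tkt encodes transketolase, which moves carbon units between sugar phosphates, and lies on chromosome 14 from 30548359 to 30574720 on the + strand. It was at 119, 107 and 168 CPM in the cont. livers, 251.2, 268 and 234 CPM in the Atg7-KO livers, and 214, 136 and 129 CPM in the S351A livers. Atg7-KO lay above both other groups, and S351A overlapped cont. through replicates 2 and 3. Tkt rose by 0.93 on the log2 scale in Atg7-KO (SE 0.25, adjusted p 0.0113) and was called under all 20 alternatives. In S351A against cont. the log2 fold change was 0.28 (adjusted p 0.444), and without replicate 1 of S351A it was -0.0068. With total library size it was 0.77 and was called.

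Taldo1 encodes transaldolase, the other carbon-transferring enzyme of the branch, and lies on chromosome 7 from 141392199 to 141402968 on the + strand. Its levels were 118, 113 and 164 CPM in the cont. livers, 137, 180 and 180 CPM in the Atg7-KO livers, and 106, 65.3 and 91.9 CPM in the S351A livers. Atg7-KO overlapped cont., and every S351A liver was below every liver of the other groups. The log2 fold change was 0.32 in Atg7-KO (adjusted p 0.304) and -0.59 in S351A (adjusted p 0.0936), and neither was called. With total library size, the change in Atg7-KO was 0.87 and was called.

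Rpia and Rpe encode the isomerase and the epimerase that interconvert the pentose 5-phosphates. Rpia, on chromosome 6 from 70765720 to 70792232 on the - strand, was at 6.96, 6.64 and 12.3 CPM in the cont. livers, 14.96, 16.0 and 15.9 CPM in the Atg7-KO livers, and 17.1, 4.93 and 9.80 CPM in the S351A livers. The S351A values rest on 15, 4 and 8 counts and span both other groups. The Atg7-KO livers were above the cont. livers, by 0.76 on the log2 scale (SE 0.34), which was not called (adjusted p 0.0960). It was called without replicate 3 of cont. (1.19) and with total library size (1.33). Rpe, on chromosome 1 from 66700831 to 66719805 on the + strand, was at 61.97, 42.3 and 44.6 CPM in the cont. livers, 35.9, 36.4 and 35.4 CPM in the Atg7-KO livers, and 39.9, 40.7 and 35.5 CPM in the S351A livers. All livers with Cre were below the cont. livers, by log2 fold changes of -0.45 in Atg7-KO (adjusted p 0.0822) and -0.34 in S351A (adjusted p 0.242), neither called. Rpe overlaps Kansl1l on the opposite strand, whose log2 fold change in Atg7-KO was -0.15 (adjusted p 0.751).

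Among the NADPH producers outside the pathway, Idh1 encodes the cytosolic isocitrate dehydrogenase and lies on chromosome 1 from 65158616 to 65186500 on the - strand. It was at 701, 619 and 595 CPM in the cont. livers, 325, 370 and 381 CPM in the Atg7-KO livers, and 358, 296 and 386 CPM in the S351A livers. The livers with Cre were all below the cont. livers and overlapped each other. Idh1 fell by 0.83 on the log2 scale in Atg7-KO (SE 0.21, adjusted p 0.00765) and by 0.88 in S351A (SE 0.21, adjusted p 0.00839). With total library size the changes were -0.31 and -0.40, and without the 20 most abundant genes in that total -0.41 and -0.49, none of them called. With only the 6 compared libraries fitted, the S351A change was -0.81 and was not called (adjusted p 0.0630).

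Me1 encodes the cytosolic malic enzyme, which makes NADPH while turning malate into pyruvate and serves fatty acid synthesis. It lies on chromosome 9 from 86581371 to 86695953 on the - strand. It was at 150, 76.5 and 186 CPM in the cont. livers, 112, 101 and 125 CPM in the Atg7-KO livers, and 166, 59.2 and 83.3 CPM in the S351A livers. The groups overlapped, and the log2 fold changes of -0.29 in Atg7-KO (95% interval -1.08 to 0.50) and -0.42 in S351A (-1.23 to 0.40) were not called. The low cont. liver and the 2 low S351A livers were the female ones, whereas in Atg7-KO the male liver lay between the females. With sex as a covariate the change in Atg7-KO was 0.09.

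In S351A against cont., 1 of the 9 genes was called higher (Pgd, against 15.6% of all genes) and 2 lower (Pgls and Idh1, against 13% of all genes). Without overlap of the libraries, 1 was higher and 4 lower (Pgls, Rpe, Taldo1 and Idh1), against 19.6% and 18.4% of all genes. The median log2 fold change of the 9 was -0.34, and -0.03 over all genes. The comparisons of Atg7-KO and of S351A with cont. share the cont. livers, so their values are side by side and not independent. For Pgls and Idh1, S351A overlapped Atg7-KO, and the log2 fold changes between these groups were -0.24 (95% interval -0.73 to 0.26) and -0.05 (-0.50 to 0.40).

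S351A was then set against Atg7-KO, where the livers differ in p62. None of the 9 genes was called by edgeR or limma-voom, DESeq2 called Pgd (adjusted p 0.0346), and among all genes edgeR called 0.0089% lower and 0% higher. Below the threshold, 3 genes had every S351A liver lower than every Atg7-KO liver, namely Pgd, Tkt and Taldo1, and 0 had the reverse. Of all genes, 9.23% were lower without overlap and 7.64% higher. These 3 were also the members with an unadjusted p under 0.05 in the edgeR fit, which 3.22% of all genes had with a lower level and 3.37% with a higher one. Pgd was 1.91-fold lower, at a log2 fold change of -0.94 (SE 0.24, unadjusted p 0.00215 and adjusted p 0.385 by edgeR). For Taldo1 the log2 difference was -0.91 (SE 0.25, adjusted p 0.440), and for Tkt -0.65 (SE 0.25, adjusted p 0.713). The median over the 9 genes was -0.24, against 0.01 over all genes.

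Replicate 1 of S351A, the male and the deepest of the 3 libraries, was the highest S351A liver in 7 of the 9 genes (Pgls, Pgd, H6pd, Rpia, Tkt, Taldo1 and Me1). For Pgd, replicate 1 was at 316 CPM and replicate 3 at 167 CPM. In Atg7-KO, the same gene ran from 427 to 473 CPM. Replicate 3 of cont., the deepest library of all, was likewise the highest cont. liver in 6 genes. The shares of all genes highest in these libraries were not computed, so neither count is read as a trait of the enzymes.

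The balance within the pathway was read from 6 of its cytosolic genes (Pgls, Pgd, Rpia, Rpe, Tkt and Taldo1), as shares of their summed CPM per kb in a library, which do not depend on how libraries are scaled. The size of a share does depend on the merged length of all annotated exons. In cont., Tkt and Taldo1 averaged 131.2 and 131.5 CPM, over 7355 and 2171 bases of exon. Pgd made up 6.81, 6.54 and 5.57% in cont., 35.5, 33.8 and 34.2% in Atg7-KO, and 32.2, 33.9 and 24.3% in S351A. The group means were 6.31 ± 0.655, 34.5 ± 0.920 and 30.1 ± 5.11% (SD, n = 3). The S351A livers overlapped the Atg7-KO livers in this share, although the level of Pgd in CPM did not overlap. Tkt and Taldo1 together took 66.03 ± 3.93, 54.0 ± 1.76 and 51.4 ± 4.76% in the same order. The share of Pgls was 12.6 ± 1.12, 4.39 ± 0.592 and 6.32 ± 0.608%, with no overlap between groups. That of Tkt alone was 14.98 ± 1.14, 16.8 ± 1.502 and 17.8 ± 1.36%, and here Atg7-KO overlapped both other groups.

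**Figure D3:**
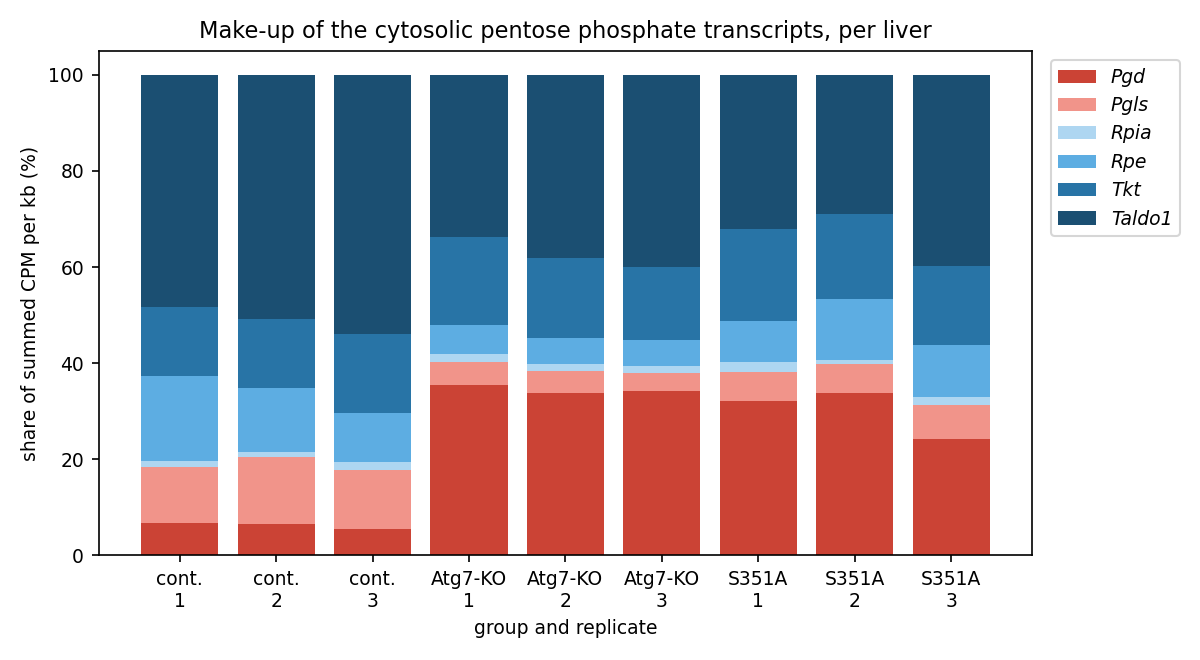
Share of each of 6 cytosolic pentose phosphate genes in their summed CPM per kb (vertical axis, percent), 1 bar per liver. The Pgd segment takes 5.57 to 6.81% in cont., 33.8 to 35.5% in Atg7-KO and 24.3 to 33.9% in S351A.

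Ratios between pairs of these genes within a library, which are free of scaling too, were compared by two-sided exact permutation tests. With 3 libraries against 3 the smallest p is 0.1, so no ratio could pass 0.05, and the adjusted p over the 9 tests was at least 0.3. The log2 ratio of Pgd to Pgls, neighbouring steps of the oxidative branch, was -0.22 ± 0.194 for cont., 3.74 ± 0.185 for Atg7-KO and 2.96 ± 0.390 for S351A (SD, n = 3), without overlap of any 2 groups (exact p 0.1). Tkt to Rpia overlapped in all groups, with means of 3.89, 3.97 and 3.86. Me1 to Idh1 also overlapped, at -2.30 ± 0.669, -1.67 ± 0.177 and -1.86 ± 0.664.

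All levels above are relative to TMM scaling, and the choice mattered for the smaller differences. Scaling by total library size shifted the median over all genes upward, by 0.54 on the log2 scale for Atg7-KO and 0.49 for S351A, both relative to cont. Pgd and Tkt were called higher in Atg7-KO under either scaling, whereas the calls of Pgls and Idh1 as lower were lost with total library size and those of Rpia and Taldo1 as higher were gained.

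**Figure D4:**
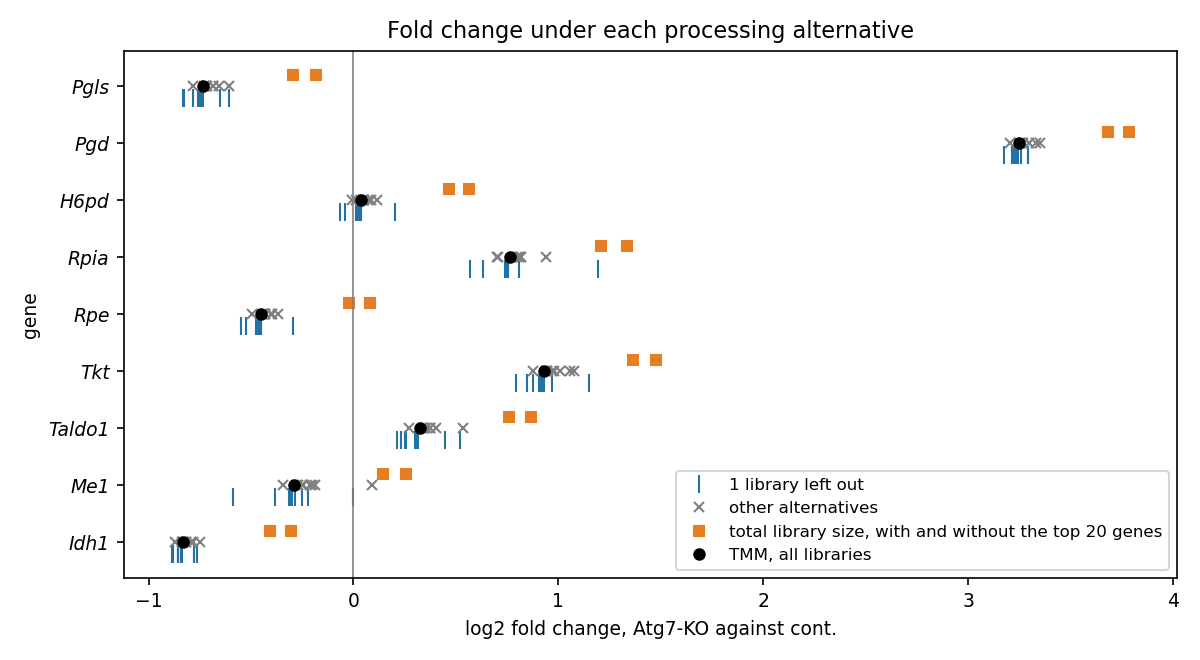
Log2 fold change of Atg7-KO against cont. (horizontal axis) for each gene under TMM with all libraries (circles), with 1 library left out (ticks), with total library size with and without the 20 most abundant genes (squares) and under the other alternatives (crosses). Pgd and Tkt stay at or above 0.79 throughout, while Rpe, Me1 and H6pd have values on both sides of 0.

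Marker transcripts of several cell types differed between the genotypes, while cell shares were not measured. In Atg7-KO against cont., 6 of the 6 tested ductular markers, 7 of 10 macrophage markers and 7 of 8 stellate and matrix markers were called higher, and 5 of 6 hepatocyte markers lower. The counts in S351A against cont. were the same. The summed ductular markers were at 46.8 to 82.8 CPM in the cont. livers, 822 to 1205 CPM in the Atg7-KO livers and 720 to 1193 CPM in the S351A livers. Stellate and matrix markers summed to 250 to 502, 1223 to 1667 and 1143 to 1622 CPM, and macrophage markers to 207 to 315, 314 to 404 and 294 to 312 CPM, with Gpnmb at 0 in every cont. library. The macrophage sums of S351A lay within the range of the cont. livers. In S351A against Atg7-KO, none of these markers was called by edgeR. Their part in the differences of the enzyme genes was not tested.

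Counts for further gene lists around the pathway are read against the shares of all genes called, 19.9% higher and 18.1% lower in Atg7-KO and 15.6% and 13% in S351A, each against cont. With total library size these shares were 38.3 and 7.12%, and 31.2 and 4.57%. Of 11 further pentose phosphate genes, 8 were tested, and in Atg7-KO against cont. 0 were called higher and 1 lower by edgeR (with total library size 3 and 0). The gene was Shpk, the kinase that makes sedoheptulose 7-phosphate, with a log2 fold change of -1.22 (adjusted p 0.00365) that was not called with total library size. In S351A against cont., 0 were called higher and 2 lower, Shpk and Dera (1 and 0 with total library size). These calls depended on the processing, with Shpk (adjusted p 0.0477) called under 8 of 20 alternatives and Dera (adjusted p 0.0313) under 13 of 20, and both lost without replicate 1 or without replicate 2 of S351A. Tktl1 and Tktl2, relatives of Tkt, were not tested. Of the 9 genes that set the supply of glucose 6-phosphate, Atg7-KO had 3 called higher and 3 lower (4 and 2 with total library size), and S351A 2 and 2 (4 and 1), each against cont. Hk2, a hexokinase low in normal hepatocytes, averaged 3.32, 64.8 and 57.8 CPM in cont., Atg7-KO and S351A, with log2 fold changes of 4.48 and 4.32 against cont. (adjusted p 3.20e-06 and 1.07e-05). Gpi1, which links glucose 6-phosphate to fructose 6-phosphate, rose by 1.51 on the log2 scale in Atg7-KO (adjusted p 0.000264) and by 0.84 in S351A (adjusted p 0.0132). G6pc, the phosphatase that releases free glucose, had log2 fold changes of -3.39 in Atg7-KO (adjusted p 0.000421) and -2.81 in S351A (adjusted p 0.00224).

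Of 12 other NADPH-producing genes, 9 were tested, of which Atg7-KO had 2 called higher and 4 lower (4 and 3 with total library size), and S351A 1 and 3 (2 and 3). The folate enzymes Aldh1l1 and Mthfd1 had log2 fold changes of -1.64 (adjusted p 0.000188) and -1.37 (adjusted p 0.000899) in Atg7-KO and of -1.50 and -1.35 in S351A (adjusted p 0.000638 and 0.00217). Nadk2, the mitochondrial NAD kinase, fell by 1.23 on the log2 scale in Atg7-KO (adjusted p 0.00167) and by 1.43 in S351A (adjusted p 0.00140). Of 12 genes that use NADPH to reduce thiols, quinones and carbonyls, Atg7-KO had 7 called higher and 2 lower, and S351A 5 and 1 (7 and 1, and 7 and 0, with total library size). Nqo1, a quinone reductase, was at 14.1 CPM in the cont. livers, 303 CPM in the Atg7-KO livers and 138 CPM in the S351A livers. Gsr, glutathione reductase, rose by 1.86 on the log2 scale in Atg7-KO (adjusted p 0.000137) and by 0.86 in S351A (adjusted p 0.0214). Of 12 genes that use NADPH in lipid and steroid metabolism, Atg7-KO had 3 called higher and 2 lower (5 and 1 with total library size), near the shares of all genes under both scalings, and S351A had 2 and 1 (5 and 1). Hsd11b1, the partner of H6pd, had log2 fold changes of -1.16 in Atg7-KO (adjusted p 0.00188) and -1.19 in S351A (adjusted p 0.00281). Of 9 lipogenic partners, Atg7-KO had 2 called higher and 5 lower (3 and 2 with total library size), and S351A 2 and 2 (3 and 2). Mlxipl, which encodes the transcription factor ChREBP, was at -2.18 on the log2 scale in Atg7-KO (adjusted p 0.000826) and -1.99 in S351A (adjusted p 0.00246), and Srebf1 at -1.85 (adjusted p 0.00179) and -1.51 (adjusted p 0.00958). Without replicate 1 of S351A, Srebf1 was not called in S351A. Pnpla3, a lipid droplet protein gene, went the other way, with averages of 2.91, 10.6 and 17.6 CPM for cont., Atg7-KO and S351A and log2 fold changes of 1.77 and 2.50 (adjusted p 0.00187 and 0.000637). Its call in Atg7-KO was lost with every library thinned to the smallest. In S351A against Atg7-KO, no gene of these lists was called by edgeR. DESeq2, which called 0.205% of all genes higher and 0.151% lower, called 3 of the 12 thiol, quinone and carbonyl genes lower. They were Gsr at -1.00 on the log2 scale, the biliverdin reductase gene Blvrb at -0.86 and the carbonyl reductase gene Cbr3 at -1.10, with adjusted p of 0.0307, 0.00819 and 0.0101 by DESeq2 and of 0.365, 0.365 and 0.310 by edgeR.

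Of 16 genes of the NRF2 pathway, Atg7-KO had 7 called higher and 0 lower, and S351A 5 and 0 (12 and 0, and 8 and 0, with total library size). The list holds targets that the study measured in these livers and is not independent evidence of its direction. Srxn1, which encodes sulfiredoxin, had log2 fold changes of 5.00 in Atg7-KO and 3.92 in S351A, and the glutathione transferase gene Gsta1 of 5.06 and 3.74, all called. Nfe2l2, which encodes NRF2, had log2 fold changes of -0.77 and -0.85 against cont. (adjusted p 0.0780 and 0.0789), and Keap1 of 0.28 and 0.07 (adjusted p 0.336 and 0.864). Sqstm1, which encodes p62, was at 0.38 in Atg7-KO and -0.06 in S351A (adjusted p 0.170 and 0.873). None of these 3 was called. In S351A against Atg7-KO, edgeR called 0 of the 16 genes, and DESeq2 called 3 lower, namely Srxn1 at -1.08, Gsta1 at -1.31 and Gclc, a subunit of the enzyme that starts glutathione synthesis, at -0.91 on the log2 scale (adjusted p 0.0142, 0.0307 and 0.0462 by DESeq2, 0.365, 0.385 and 0.468 by edgeR).

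The genes whose pattern over the 9 libraries was nearest to a called member were sought among 8792 genes, by the root mean square difference of log2 CPM after centring. Nearest to Pgd were Arhgap27 (0.22), Itga3 (0.23) and Tes (0.28). Rpl12, Cyb5r4 and Psmd8 were nearest to Tkt, at 0.17 to 0.20. Hnrnpll, Thnsl2 and Kdm3b were nearest to Pgls, at 0.12 to 0.13, and Pde3b, Adi1 and Rab9 to Idh1, at 0.09 to 0.11. None of these nearest genes was one of the 9.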

How the data were processed

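Poly(A) RNA of 9 livers was sequenced by the authors as 75-base single-end reads. The reads were trimmed with Trim Galore, mapped to mm10 with STAR and quantified with RSEM, per the labels and the methods of the study. The table deposited by the authors holds expected counts per gene symbol, unscaled. Tool versions, annotation and strand setting are not given in the sources used here. Columns were matched to samples by their group code and replicate number against the titles, and 0 columns were left over. Between 4.40 and 7.75% of the values in a library were not whole, and all were rounded.

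The count analysis used edgeR 4.0.16 and R 4.3.3. Its filterByExpr (minimum count 10, minimum total 15) kept 11238 genes, and libraries were scaled by TMM. All 9 libraries entered 1 quasi-likelihood model with the group as its term. A gene was called at a Benjamini-Hochberg adjusted p under 0.05 over all genes tested and a fold change above 1.5. SE values are those implied by the F statistic. Counting intervals are exact Poisson intervals at 95%, and intervals and the floor of 3 counts cover counting error only. Positions, exon lengths and overlaps came from GENCODE M21. Shares and levels per kb use the merged exon length of each gene. Ratios used counts plus 1. Replicates are biological replicates per the study.

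The members, the gene lists and the rule for named genes were chosen with earlier results of these data known. A further member is not reported here. The rule names all members, Atg7, Sqstm1, Keap1 and Nfe2l2, up to 3 called genes per pathway list with the largest change and a mean of 10 CPM or more in either group, and 3 nearest patterns per called member. Fam129c and Kansl1l are given as overlaps. Lists covered hepatocyte, ductular, macrophage, neutrophil, lymphocyte, stellate and matrix, endothelial, erythroid and proliferation markers and the 7 pathway lists named in the results. Alternatives were RLE size factors, total library size with and without the 20 most abundant genes, other filters, DESeq2 1.42.0, limma-voom (limma 3.58.1), the compared libraries alone, replicate number or sex as a covariate, thinning to the smallest library, no fold limit, other counts added to ratios and leaving out each library. The fit was tested on simulated data. The authors' other genotypes were not analysed here.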

Additional observations from a re-analysis of the deposited data

How the results depend on the processing

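Of 537 alternative values for the 9 genes in the 3 comparisons, 497 kept their direction and their side of the threshold, 11 lost a call, 7 gained a call and 22 changed sign. None of the 22 belonged to a gene called in that comparison. In Atg7-KO against cont., H6pd was -0.0076 on the log2 scale with no filter and -0.065 to 0.20 with a library left out, Rpe was 0.080 with total library size, and Me1 was 0.26 with total library size, 0.14 without the 20 most abundant genes and 0.088 with sex as a covariate. In S351A against cont., H6pd was 0.45 with total library size, 0.36 without the 20 most abundant genes, 0.045 where every library needed 10 counts, 0.052 when only the compared libraries were fitted and -0.13 to 0.14 with a library left out. Rpe was 0.13 and 0.044 under the same scalings, Me1 was 0.085 with total library size, and Rpia and Tkt ran from -0.33 to 0.65 and from -0.0068 to 0.49 with a library left out. In S351A against Atg7-KO, leaving out a library gave -0.13 to 0.040 for H6pd, -0.66 to 0.15 for Me1 and -0.14 to 0.054 for Idh1. Without the 20 most abundant genes, 1 of the 9 was called in S351A against cont. (3 under TMM), and DESeq2 called 1 in S351A against Atg7-KO (0 by edgeR). The cause was not tested.

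Over all genes, total library size turned 2239 higher and 2032 lower calls in Atg7-KO against cont. into 4306 and 800, and 1753 and 1461 in S351A against cont. into 3511 and 514. Without the 20 most abundant genes the medians moved by 0.43 and 0.39. Thinning every library to the smallest left 1320 higher and 1272 lower calls in Atg7-KO, and a filter of 10 counts in every library 1175 and 1330. In S351A against cont., the compared libraries alone gave 1085 and 764 calls, and the lower calls were 896 without replicate 1 and 886 without replicate 2 of S351A. In S351A against Atg7-KO, where edgeR called 0 higher and 1 lower, DESeq2 called 23 and 17, and the fit with no filter 61 and 39.

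The replicate numbers were not taken as pairs, since not every correlation between the deviations of same-numbered livers exceeded 0.1 (-0.043 to 0.30). A hint of pairing from the data, not from the design, is that 6 of 9 libraries correlated best with their own number, and the livers numbered 1 were all male and those numbered 2 all female. With a replicate block the calls among the 9 were 4, 3 and 0, as without it, and all genes gave 2311 higher and 2019 lower calls in Atg7-KO against cont. The depth of S351A, with 4 to 30 counts for Rpia and Pgls, limits the values of these genes most.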

Other observations

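The other marker lists gave the following values. In Atg7-KO against cont., 6 of 6 proliferation markers were called higher by edgeR, with their sum at 13.7 to 22.1 CPM in the cont. livers, 109 to 145 CPM in the Atg7-KO livers and 93.1 to 108 CPM in the S351A livers, where 5 of the 6 were called higher against cont. Of 3 tested erythroid markers 2 were called lower in Atg7-KO and 2 in S351A, and their sum was 320 to 892 CPM in the cont. livers, 92.3 to 203 CPM in the Atg7-KO livers and 149 to 216 CPM in the S351A livers, with Hba-a1 at 0 in every library. Of 6 endothelial markers 1 was called higher and 2 lower in Atg7-KO, and 1 and 0 in S351A, and the sums overlapped at 101 to 192, 132 to 158 and 111 to 151 CPM. The 1 neutrophil marker tested was called higher in both comparisons with cont., with sums of the list at 7.38 to 9.09 CPM in the cont. livers, 16.1 to 24.5 CPM in the Atg7-KO livers and 13.5 to 17.3 CPM in the S351A livers. Mpo and Elane were at 0 in all cont. and Atg7-KO livers. Of 2 tested lymphocyte markers 1 was called higher in Atg7-KO and 0 in S351A, with sums of 8.85 to 20.6, 46.7 to 62.2 and 33.1 to 41.9 CPM.

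The coefficient of variation across the 3 livers of a group is given as a description, with no test. It was lowest in Atg7-KO for 9 of the 9 enzyme genes and highest in S351A for 7, by margins that differed between genes. How often this order holds over all genes was not computed, so it is not read as a trait of these enzymes. Those given here were chosen after their values were seen. The coefficient of variation of Pgd was 8.31, 5.13 and 31.8% for cont., Atg7-KO and S351A, where counting error alone averages 8.18, 2.74 and 7.32%. For Tkt the values were 24.6, 6.82 and 29.9%, and counting error alone 5.10, 3.70 and 8.86%. For H6pd they were 19.7, 1.28 and 13.0%, and counting error alone 3.00, 3.06 and 5.89%. The groups lay closer for Pgls, at 14.3, 13.5 and 18.9% (counting error 7.72, 10.1 and 20.7%), and for Idh1, at 8.66, 8.26 and 13.3% (2.20, 3.07 and 5.91%).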
